A study of Mus musculus with 4 samples.

Results

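MHC class II genes, together with *Cd74* and *Ciita*, were examined in group 3 innate lymphoid cells (ILC3s) of the mouse large intestine after stimulation of DR3, a TNF family receptor. The genes were found by symbol in the authors' table of α-DR3 against PBS, and 10 of its 2179 genes were members: the chains *H2-Aa*, *H2-Ab1*, *H2-Eb1* and *H2-Eb2*, the peptide editors *H2-DMa*, *H2-DMb1*, *H2-DMb2* and *H2-Oa*, the invariant chain *Cd74* and the transactivator *Ciita*. All mice, controls included, lacked *Rag1* (*Rag1*-/-) and carried 1 copy of a GFP reporter allele that marks ILC3s, and per the study's methods they were young adult littermates of both sexes on the C57BL/6 background. Without *Rag1* no mature T or B cells form, and lineage-negative GFP+ cells were sorted as ILC3s. One group received 1 µg of the agonistic antibody 4C12 (α-DR3) in a single injection and the other received PBS, with no control antibody, and lamina propria lymphocytes were taken on day 3. Each group had 2 libraries, each from pooled cells of several mice.

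MHC class II molecules are pairs of an α and a β chain that present peptides to CD4+ T cells. The chains are assembled on the invariant chain (*Cd74*), a fragment of which is later removed from the groove by the DM dimer, whereas the DO dimer restrains DM. Transcription of these genes depends on *Ciita*, which acts on factors bound to paired X and Y boxes in their promoters, and class II on ILC3s is known for limiting T-cell responses to gut bacteria. In mice of the b haplotype, such as C57BL/6, the Eα gene is defective, so that Eβ transcripts are made without a partner for surface H2-E.

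The values are the authors' group means in FPKM, which counts sequenced fragments relative to transcript length and to the mapped fragments of the library. No value of a single library is used here, so the spread between replicates, the depth and a test of each difference are not given, and whether any difference exceeds replicate error is not known from these values. A gene entered the table if its p-value in the authors' own comparison was under 0.05 and the larger of its group means exceeded 1 FPKM. A listed gene therefore had to differ, and *H2-Ob*, *H2-Ea* and other class II genes outside the table were not analysed here. As a check of the sorted cells, *Il22* averaged 17424 FPKM in PBS and 44537 in α-DR3, and *Ncr1*, a receptor gene of NCR+ ILC3s, averaged 460.2 and 279.

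Promoter sequences are shown for 5 members with a Y box and, at the place of the X box, a stretch ending in AAC, to show the letters behind the motif counts. RefSeq windows on GRCm38.p6, from 250 bases before to 50 bases after the start site, were found for 7 of the 10 members, with 8 windows in all. Capitals mark this 9-base stretch, which differs from the searched X box core in all 5, and the Y box.
H2-Aa: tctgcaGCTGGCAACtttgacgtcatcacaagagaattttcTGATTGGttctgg
H2-Eb1: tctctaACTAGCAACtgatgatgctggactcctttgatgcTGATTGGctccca
H2-Eb2: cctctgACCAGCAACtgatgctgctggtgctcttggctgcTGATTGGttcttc
H2-DMb2: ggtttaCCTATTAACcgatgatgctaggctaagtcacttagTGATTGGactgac
H2-Oa: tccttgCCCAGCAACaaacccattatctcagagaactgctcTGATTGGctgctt
These runs lie at chr17:34287861-34287914 on the minus strand (*H2-Aa*) and, on the plus strand, at chr17:34305766-34305818 (*H2-Eb1*), chr17:34325533-34325585 (*H2-Eb2*), chr17:34145116-34145169 (*H2-DMb2*) and chr17:34092293-34092346 (*H2-Oa*). All lie before the RefSeq start site. In GENCODE M21, the run of *H2-DMb2* lies within the gene but in no exon, and 7 of the 54 bases of the *H2-Oa* run fall in its first exon. *H2-DMb1*, whose run lies in an exon of the GENCODE M21 gene, has the X stretch CCTAGTAAC and the same Y box.

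The Y box core ATTGG, searched on both strands, was found in 7 of the 8 windows of the members, 1 for each gene, and in 37.4% of all 32851 promoter windows. The X box core CCTAGNNAC was found in 1 of the 8 windows, that of *H2-DMb1*, and in 3.91% of all windows, and that core 20 to 45 bases before ATTGG was again found only for *H2-DMb1* and in 0.119% of all windows. A looser form, chosen after these windows had been read, was AAC followed after 25 or 26 bases by TGATTGG, a longer Y box that overlaps ATTGG. It was present in 6 of the 8 windows, each of a different member, a count and a spacing that its choice from these windows fixed, with 26 bases between the elements in *H2-Aa*, *H2-DMb1*, *H2-DMb2* and *H2-Oa* and 25 in *H2-Eb1* and *H2-Eb2*, and in 0.253% of all windows. The Y box began between 45 bases (*H2-Oa*) and 102 bases (*H2-Eb2*) before the start site. For *H2-DMa*, neither of its 2 windows held the spaced pair, and 1 held ATTGG alone. A match of letters is a description of the sequence and not of factor binding.

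**Figure D1:**
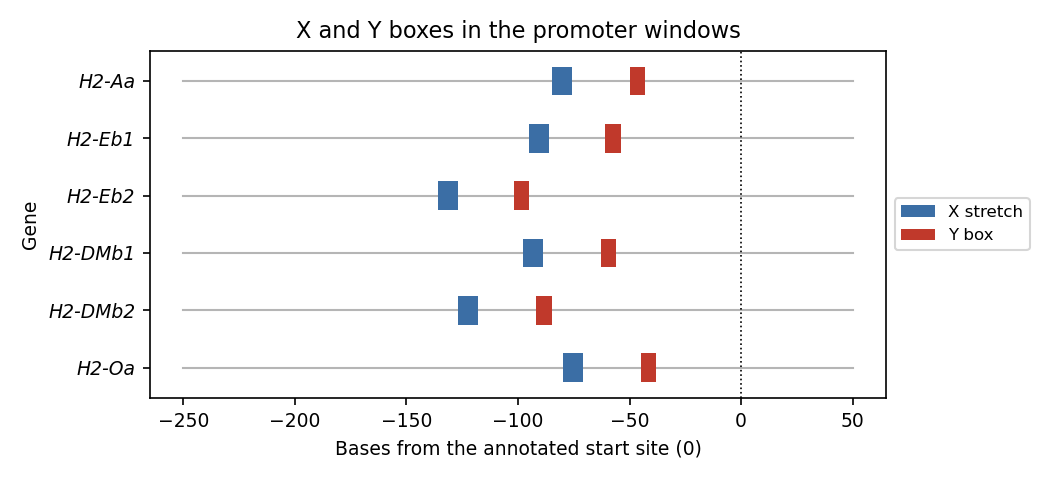
Position of the 9-base X stretch (blue) and the Y box (red) in the RefSeq promoter windows of 6 members, in bases from the annotated start site at 0, with the grey line spanning each window. The distance of 25 or 26 bases between the elements is part of the motif, which was written after reading these windows, and the Y box begins between 45 and 102 bases before the start.

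All 10 members were higher in ILC3s from α-DR3-treated mice and none was lower, against 54.6% of all listed genes that were higher. Each reached a ratio of group means of at least 1.5 (37.1% of listed genes, while a further 38.4% were at least 1.5-fold lower), 9 reached 2 (20.5% of listed genes) and 7 reached 3 (11.1% of listed genes). The median log2 ratio over the members was 1.81, a 3.5-fold difference, and it was 0.39 over all listed genes. Because of how genes entered the table, only 28 genes have a log2 ratio within 0.3 of 0 and this median reflects the larger number of higher genes. Relative to it, the log2 ratios of the members ranged from 0.24 (*H2-DMa*) to 2.85 (*H2-DMb2*). In bulk RNA from sorted cells, more cells that express class II and more class II RNA per cell cannot be told apart.

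**Figure D2:**
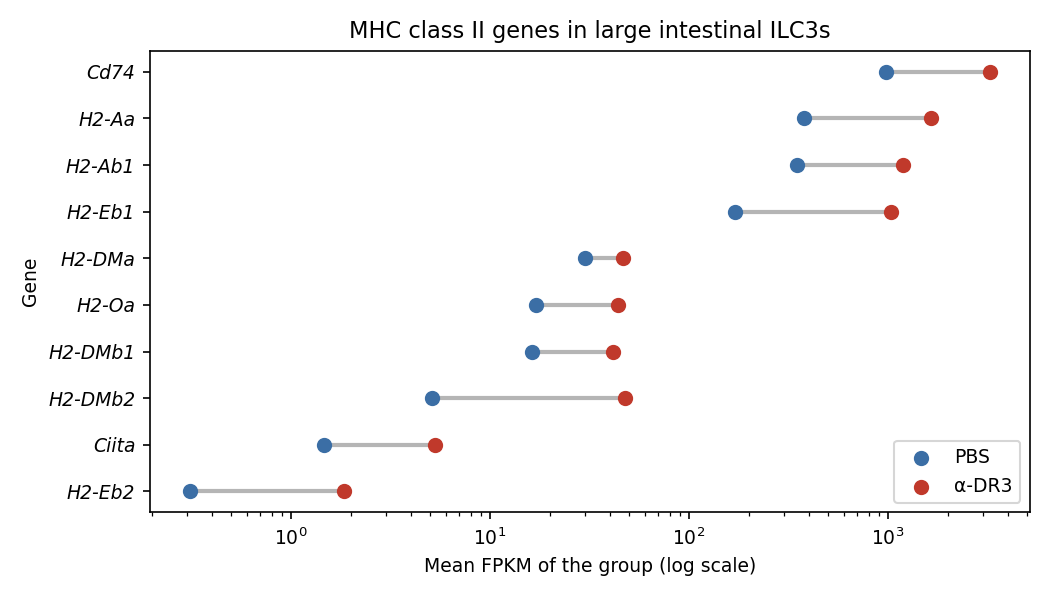
Authors' mean FPKM (log axis) of the 10 members in PBS (blue) and α-DR3 (red), ordered by the PBS level, with 1 value per group and no error bar because values of single libraries are not used. Each red point lies to the right of its blue point, and *H2-DMa*, *H2-DMb1*, *H2-DMb2* and *H2-Oa* lie close together in α-DR3, between 41.4 and 47.9 FPKM, but not in PBS.

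The chains of the classical molecules were already abundant in PBS. *H2-Aa* (ENSMUSG00000036594.7), the α chain of H2-A, lies on chromosome 17 (34282744 to 34287823; GRCm38 coordinates here and below are those of GENCODE M21). It averaged 378 FPKM in PBS and 1653 in α-DR3, a ratio of 4.37. Its partner *H2-Ab1* (ENSMUSG00000073421.4; chromosome 17, 34257689 to 34269419) averaged 350.2 and 1184 FPKM, a ratio of 3.38. *H2-Eb1* (ENSMUSG00000060586.8; chromosome 17, 34305867 to 34316674), the β chain of H2-E, averaged 170 FPKM in PBS and 1037 in α-DR3, a ratio of 6.11. The order *H2-Aa*, *H2-Ab1*, *H2-Eb1* was the same in both groups, but the levels were spaced differently. *H2-Aa* stood at 1.08 times the level of *H2-Ab1* in PBS and at 1.40 times in α-DR3, and *H2-Eb1* at 0.485 and 0.876 times. Set against both β chains together, *H2-Aa* was at 0.728 of their summed FPKM in PBS and at 0.744 in α-DR3. The further β chain *H2-Eb2* (ENSMUSG00000067341.5; chromosome 17, 34325665 to 34341412) was near the lower end of the table, with 0.31 FPKM in PBS and 1.85 in α-DR3. With a PBS mean under 1 FPKM it could be listed only if it was higher. Per 100 FPKM of *H2-Eb1*, *H2-Eb2* had 0.183 FPKM in PBS and 0.178 in α-DR3. The log2 ratio of *H2-Eb2* was 2.58 from the plain means and 1.12 with 1 added to each mean, against 2.61 and 2.60 for *H2-Eb1*.

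*Cd74* (ENSMUSG00000024610.8; chromosome 18, 60803848 to 60812652), the invariant chain, had the highest level of the members in both groups. It averaged 983 FPKM in PBS, the 10th highest PBS level of the table, and 3249 in α-DR3, the 3rd highest α-DR3 level, a ratio of 3.31. Of the 5359 FPKM by which the summed members differed between α-DR3 and PBS, 42.3% came from *Cd74* and 55.5% from the 3 classical chains. Over all libraries, the authors' average CPM (counts scaled to library size) of the 10 members summed to 5488, or 0.549% of all counts. The ratio of *Cd74* was lower than that of the summed classical chains (4.31), so per 100 FPKM of those chains there were 109 FPKM of *Cd74* in PBS and 83.9 in α-DR3.

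Ratios differed most among the peptide editors. *H2-DMb2* (ENSMUSG00000037548.8; chromosome 17, 34143307 to 34151555), a DM β chain, averaged 5.1 FPKM in PBS and 47.9 in α-DR3, and its ratio of 9.4 was the highest of the members. The other DM β chain, *H2-DMb1* (ENSMUSG00000079547.2; chromosome 17, 34153072 to 34160230), averaged 16.2 and 41.4 FPKM, a ratio of 2.56. *H2-DMa* (ENSMUSG00000037649.9; chromosome 17, 34119541 to 34139101), the only DM α chain, averaged 30.2 and 46.4 FPKM. Its ratio of 1.54 was the lowest of the members and became 1.18 once divided by the median ratio of listed genes, which is under the 1.5-fold limit. *H2-Oa* (ENSMUSG00000024334.7; chromosome 17, 34092340 to 34095234), the α chain of DO, averaged 16.97 and 43.9 FPKM, a ratio of 2.59.

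The highest of these 4 chains stood 5.91 times above the lowest in PBS and 1.16 times in α-DR3. *H2-DMb2* made up 23.97% of the FPKM of both DM β chains in PBS and 53.6% in α-DR3. The paralogs are similar enough to exchange reads: 27.2% of the 50-base words of *H2-DMb1* coding transcripts also occur in those of *H2-DMb2*, while none of the other 44 pairs of members shares such a word. The sequenced reads were of that length, so the split between both genes rests partly on how RSEM assigned shared reads. Their summed FPKM, which still depends on that split through the length of each gene, was 21.3 FPKM in PBS and 89.4 in α-DR3, a ratio of 4.20.

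Within a group, ratios between genes do not depend on scaling between groups, and they gave a different balance in PBS and in α-DR3. Per 100 FPKM of the 3 classical chains, *H2-DMa* had 3.36 FPKM in PBS and 1.198 in α-DR3, and *H2-Oa* had 1.89 and 1.13. For the summed DM β chains the values were 2.37 and 2.31, so that these kept nearly the same proportion to the classical chains in both groups. The α to β ratio of DM transcripts was 1.42 in PBS and 0.519 in α-DR3. *H2-Oa* stood at 0.563 of the level of *H2-DMa* in PBS and at 0.946 in α-DR3. All DM chains together had 5.72 FPKM per 100 FPKM of classical chains in PBS and 3.50 in α-DR3. Whether these shifts exceed the spread between libraries was not tested.

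**Figure D3:**
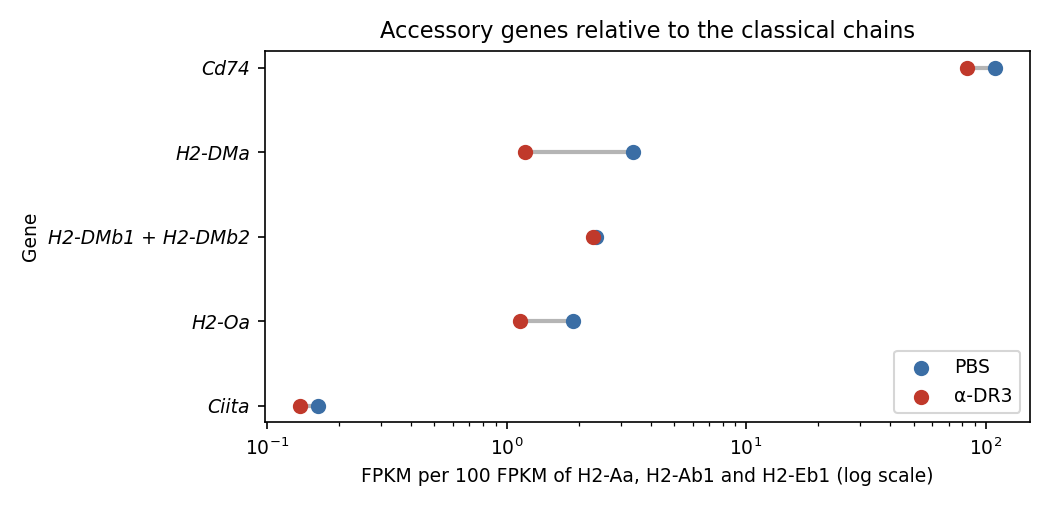
FPKM of each accessory gene per 100 FPKM of *H2-Aa*, *H2-Ab1* and *H2-Eb1* together (log axis) in PBS (blue) and α-DR3 (red), from 1 mean per group. The points of the summed DM β chains nearly coincide (2.37 and 2.31), whereas *H2-DMa* lies at 3.36 in PBS and 1.198 in α-DR3.

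*Ciita* (ENSMUSG00000022504.8; chromosome 16, 10480059 to 10528418), the regulator of the class II genes, had a low level. It averaged 1.47 FPKM in PBS and 5.3 in α-DR3, a ratio of 3.62, which lay between those of *H2-Ab1* and *H2-Aa*. Per 100 FPKM of classical chains there were 0.163 FPKM of *Ciita* in PBS and 0.137 in α-DR3. GENCODE M21 gives *Ciita* 6 coding transcripts with 6 different starts, and the gene-level values do not separate them. With 1 added to each mean, the log2 ratio of *Ciita* was 1.35 in place of 1.86.

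**Figure D4:**
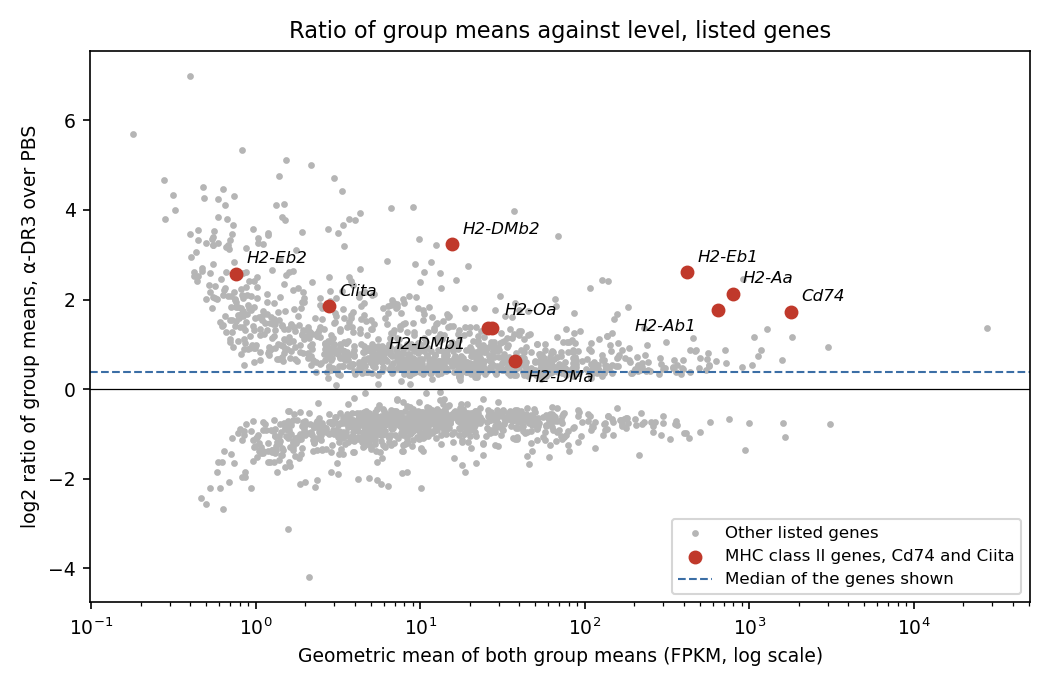
log2 ratio of group means (α-DR3 over PBS) against the geometric mean of both group means (FPKM, log axis) for listed genes above 0 in both groups, with the members in red and the median of the genes shown as a dashed line. *Cd74*, *H2-Aa*, *H2-Ab1* and *H2-Eb1* lie at the upper right, where few other genes with ratios of at least 3 are found.

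Few genes combined such levels with such ratios. An α-DR3 mean of at least 100 FPKM and a ratio of at least 3 were met by 15 listed genes, and *Cd74*, *H2-Aa*, *H2-Ab1* and *H2-Eb1* were 4 of them. Among the 194 other genes with an α-DR3 mean of at least 100 FPKM, the 5 whose log2 ratio was nearest the median of the classical chains, 2.13, were *Cd81* (2.01), *Ndrg1* (2.26), *Gzma* (1.85), *Tgm2* (2.42) and *Tnfrsf9* (1.83). This likeness rests on 2 group means per gene.

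Of the members, 8 lie within 249 kb of chromosome 17 (34092340 to 34341412), where GENCODE M21 has 14 coding genes. Besides the members, 2 listed genes lie there, the class I transporter subunit *Tap1*, with 61.4 FPKM in PBS and 93.9 in α-DR3, and its neighbour *Psmb9*, a subunit of the immunoproteasome, with 29.9 and 38.8. *Psmb9* was placed by symbol, since its identifier is not in GENCODE M21, and it overlaps the start of *Tap1* on the other strand. Outside this stretch, in the flanks of 500 kb, ratios went both ways. Over the stretch and flanks together, 6 of 10 listed genes that were no members were higher and 4 were lower, from 0.423 (*Pram1*) to 1.66 (*Ring1*). All 8 members of the region had ratios above those of *Tap1* (1.53) and *Psmb9* (1.29), the nearest being *H2-DMa* (1.54).

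The 6 pathway lists held 98 genes. In the list of antigen processing and peptide loading, 5 of 14 genes were listed, all higher, and 4 reached 1.5-fold. *Ctss*, the cathepsin that trims the invariant chain, averaged 102 FPKM in PBS and 160.0 in α-DR3, and *Lgmn*, the gene of a lysosomal endopeptidase, 4.29 and 10.3. *Ctsh*, another lysosomal protease, had 91.0 and 206 FPKM. The tetraspanin *Cd82* had 1214 and 2713 FPKM, and the tetraspanin *Cd9* had 91.7 and 134.

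Factors of class II transcription differed in both directions, with 5 of 22 listed under the symbols searched, 3 higher and 2 lower. The factor *Spi1* was also listed, under its older symbol *Sfpi1*, and is outside these counts. It was higher, with 1.29 FPKM in PBS and 3.38 in α-DR3. *Rfx5*, a subunit of the X box factor, averaged 2.37 FPKM in PBS and 3.33 in α-DR3, and *Irf8* had 92.3 and 133. *Creb1*, which binds next to the X box, was lower in α-DR3, with 25.2 and 15.5 FPKM, and so was *Bcl6*, with 6.15 and 3.69. Of 9 genes of class II turnover, 3 were listed. *March8*, whose product ubiquitinates class II molecules, had 3.91 FPKM in PBS and 2.34 in α-DR3, and *Cd83*, which stabilizes class II on the surface, had 258 and 357. *Ubqln1* had 19.2 and 28.6 FPKM.

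In the interferon-γ list 10 of 16 genes were listed, 8 higher and 2 lower. The receptor subunit *Ifngr2* averaged 4.87 FPKM in PBS and 13.5 in α-DR3, the kinase *Jak2* 16.7 and 32.1, and the feedback inhibitor *Socs1* 63.1 and 115. Of the listed GTPase genes, *Iigp1* had 2.22 and 5.82 FPKM, *Gbp3* 5.83 and 11.7, *Tgtp1* 51.2 and 81.8, *Irgm1* 17.04 and 25.1 and *Gbp2* 30.9 and 42.7, whereas *Irgm2* had 24.7 and 12.0 and *Gbp4* 41.4 and 28.4. For MHC class I, 7 of 27 genes were listed, 6 higher and 1 lower, with a median log2 ratio of 0.42 against 1.81 for the class II members. *H2-Q4* had the highest ratio of these, 1.62, and *H2-Q2*, the lower one, had 12.4 FPKM in PBS and 6.92 in α-DR3.

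Of 10 co-stimulatory genes 6 were listed, 5 higher and 1 lower, with a median log2 ratio of 2.96. *Tnfsf4* (OX40L), which is also in the list of ILC3 markers, averaged 21.1 FPKM in PBS and 226 in α-DR3, and *Cd40* 4.29 and 26.2. *Cd86* had 0.17 and 1.79 FPKM, *Cd70* 0.23 and 2.03, and *Cd24a* 0.21 and 1.45, so these 3 could be listed only if higher. *Tnfsf9* was lower, with 109 FPKM in PBS and 52.0 in α-DR3.

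**Figure D5:**
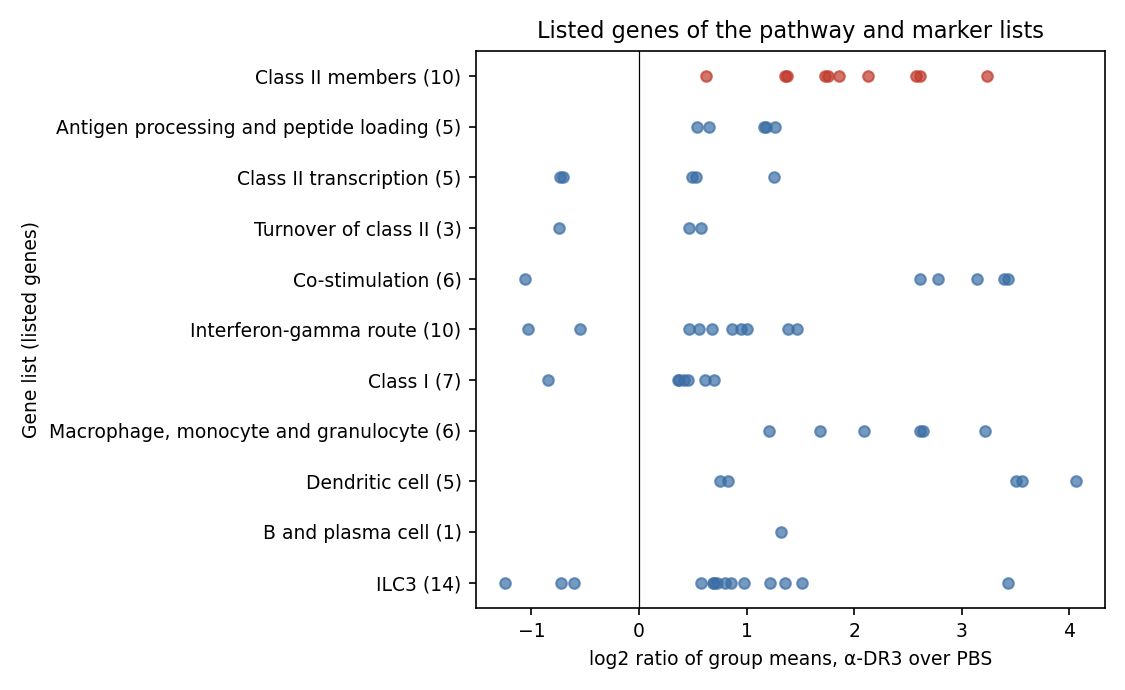
log2 ratio of group means (α-DR3 over PBS) of each listed gene found by symbol, by list. The class II members are in red and the number of genes found is in brackets. All 10 members lie above 0, as do the myeloid and dendritic cell markers shown, of which 4 and 2 could be listed only if higher. The lists of class II transcription, interferon-γ and class I hold genes on both sides.

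Markers of other cells that carry class II were also higher in α-DR3, although lineage-negative cells were sorted and the lineage markers named in the study are CD3, B220, CD11b and CD11c. Of 24 markers of macrophages, monocytes and granulocytes 6 were listed under the symbols searched, all higher. Of these, 4 had a PBS mean under 1 FPKM and could be listed only if higher. Their FPKM summed to 9.45 in PBS and 56.7 in α-DR3. *Lyz2* (lysozyme) was the highest of these 6 in both groups, with 4.09 and 37.9 FPKM, and accounted for most of the α-DR3 sum. Next in α-DR3 were *Cd68* with 3.11 and 7.17, *C1qb* with 0.67 and 4.17 and *Cd14* with 0.64 and 3.91. *C1qa* and *C1qc* stood at 1.94 and 1.59 FPKM in α-DR3. The marker *Adgre1* was also listed, under its older symbol *Emr1*, and is outside these counts and sums. It had 0.19 FPKM in PBS and 1.175 in α-DR3, so it too could be listed only if higher.

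Of 16 dendritic cell markers 5 were listed, all higher, with sums of 77.0 and 173 FPKM, and for 2 of them, *Fscn1* and *Ccl22*, a PBS mean under 1 FPKM fixed the direction. *Ccl17* averaged 2.22 FPKM in PBS and 37.1 in α-DR3, *Fscn1* 0.57 and 6.46, and *Ccl22* 0.13 and 1.54. *Zbtb46* had 42.3 and 71.4 FPKM and *Batf3* 31.9 and 56.4. Of 12 B cell markers 1 was listed, *Cd79b*, with 10.9 and 27.2 FPKM. None of these 12 markers found by symbol was at 0 in a group. Apart from *Emr1*, the other markers of these lists were not analysed here. The 8 class II chains summed to 967 FPKM in PBS and 4056 in α-DR3. The part of other cells in the higher class II level was not tested.

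Markers of ILC3 subsets were listed in both directions. Of 20 ILC3 markers 14 were listed, 11 higher and 3 lower. *Ccr6*, which marks LTi-like ILC3s, averaged 29.5 FPKM in PBS and 68.3 in α-DR3, and *Nrp1* 8.16 and 23.3. Among the lower ones were *Ncr1*, given above, and *Tbx21*, another gene of NCR+ ILC3s, with 121 and 51.0 FPKM. The part of a different mix of ILC3 subsets in the class II values was not tested.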

How the data were processed

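RNA of sorted ILC3s was sequenced in 2 α-DR3 and 2 PBS libraries. Per the study's methods and the submitters' processing notes, paired-end reads were mapped to GRCm38.p5 by STAR 2.5, quantified by RSEM 1.2 on GENCODE M16 and compared with edgeR 3.18.1. The authors deposited 1 table of 2179 genes with the mean FPKM of each group, the log2 of average CPM over all libraries and the gene length. Its columns of fold changes, likelihood ratios, p-values and FDR hold the authors' comparison and were not used, other than to check that each listed p-value was under 0.05. The column headed wt was taken as PBS, the only other group.

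Ratios of group means were computed without a pseudocount. The limit was 1.5-fold. The table gives group means only and values of single libraries from other sources were not used here, so no test was made and n is not given. 5 symbols turned into dates were restored from their identifiers, and 2149 of 2179 identifiers were found in GENCODE M21, the source of coordinates. For the count of neighbouring genes, 22 more were placed by symbol and 8 were left out. Promoters are from RefSeq, GRCm38.p6. Shared 50-base words were counted in GENCODE M21 coding transcripts. Protein sequences were not used here. Pathway and marker lists were matched by exact symbol, so their counts, sums and medians leave out genes listed under an older symbol. *Emr1* (*Adgre1*) and *Sfpi1* (*Spi1*) are such genes. All 10 members, genes of the pathway lists, listed markers of myeloid, dendritic and B cells, and 5 genes of like ratio were named, other than items not reported here. The members and lists were chosen with earlier results of these data known, and the looser promoter motif and the sum of *H2-DMb1* and *H2-DMb2* in the median after seeing the data. Ratios and motif searches were tested on simulated data. Python 3.11.15, numpy 2.4.6, pandas 2.3.3 and matplotlib 3.10.9 were used.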

Additional observations from a re-analysis of the deposited data

How the results depend on the processing

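The median log2 ratio over the members, 1.81, was 1.54 with 1 and 1.77 with 0.1 added to each mean, 1.42 relative to the median of all listed genes, 1.76 over the 9 members whose larger group mean exceeded 5 FPKM, and 1.86 with *H2-DMb1* and *H2-DMb2* summed. The number of members past the limit was 9 with a 2-fold limit, 9 after division by the median ratio and 9 of 9 with the FPKM filter. The log2 ratio of the DM chains minus that of the classical chains was -0.71 from sums, -0.77 from the median of each role and -0.78 with the DM β chains summed. All 30 log2 ratios of single members under a pseudocount or after centring were positive, from 0.24 to 3.21. No paired analysis was possible because the deposited table holds group means only, and for the same reason no library was left out. Values of single libraries from other sources were not used here. Depth is unknown, which limits *Ciita* and *H2-Eb2* most.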

Other observations

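The remaining marker lists are given here as values. Of 10 endothelial and stromal markers 6 were listed, all higher in α-DR3, with sums of 6.84 FPKM in PBS and 25.6 in α-DR3. *Madcam1* had 0.26 and 9.03 FPKM and *Dcn* 3.16 and 8.69, and 4 of the 6 had a PBS mean under 1 FPKM. Of 6 ILC2 markers 3 were listed, with *Klrg1* at 4.38 and 10.9 FPKM, *Il5* at 0.19 and 1.82, and *Il1rl1* at 3.4 and 1.81. Of 6 markers of ILC1s and NK cells 4 were listed, 3 higher and 1 lower, with *Gzmb* at 528 and 962 FPKM, *Prf1* at 48.1 and 122, *Gzma* at 35.2 and 127, and *Klrb1c* at 103 and 49.97. None of 10 T cell and 8 epithelial markers was found by symbol among the listed genes, and their levels were not analysed here.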
